A study of Mus musculus with 20 samples.

Results

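The 8 genes followed here in the left ventricle of the mouse heart are linked to muscle atrophy. They are the ubiquitin ligase genes Fbxo32, Trim63, Trim54, Trim55, Fbxo30, Fbxw7 and Rnf144b, and the myostatin gene Mstn. They were taken by symbol from the deposited count tables, where each had 1 line, and make up 8 of 24059 genes. RNA of the ventricular free wall came from adult male C57BL/6 mice of about 9 to 13 weeks, in 4 groups of 5 libraries. These were CardioGRKO at ZT12, GRflox at ZT12, CardioGRKO at ZT0 and GRflox at ZT0, where ZT0 is lights on and ZT12 lights off. All mice carried floxed alleles of the glucocorticoid receptor gene (GRfl/fl). CardioGRKO mice (GRfl/fl alphaMHCCre/+) had in addition a Cre recombinase under the alpha myosin heavy chain promoter, which acts in cardiomyocytes, and their GRflox littermates had no Cre. Loss of the receptor and presence of Cre therefore cannot be told apart in these groups. The series title asks about the cardiomyocyte receptor and transcriptional rhythms of the heart.

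Ubiquitin ligases attach ubiquitin chains to chosen proteins and so send them to the proteasome. Fbxo32 (atrogin-1) and Trim63 (MuRF1) are the classic atrophy genes of striated muscle, raised in skeletal muscle by fasting, disuse and glucocorticoids through FOXO transcription factors and the glucocorticoid receptor. In the heart they control the turnover of sarcomere and signalling proteins, and loss of MuRF family members changes how the heart grows under load.

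Library totals ran from 5854462 to 37648421 counts, with a median of 23223656. Replicate 1 of CardioGRKO at ZT0 stands apart as the shallowest, and its file header carries another number than those of the remaining 19, with no meaning stated. Calls of the 8 genes that changed without it are given both ways. Nr3c1, the targeted gene, was at 51.0 ± 3.50 CPM (counts scaled to library size with TMM factors) in CardioGRKO and 107 ± 7.98 CPM in GRflox at ZT12, and at 55.2 ± 3.51 and 115 ± 6.11 CPM at ZT0 (SD, n = 5 each), with no overlap between genotypes. The count covers the whole gene in all cells of the wall. Summed over 11 cardiomyocyte markers, levels were 102500 to 116300 CPM in CardioGRKO and 119700 to 124700 CPM in GRflox at ZT12, and 103900 to 111400 against 114900 to 120000 CPM at ZT0. Of these markers 8 were lower and 1 was higher at ZT12, and 5 lower and 1 higher at ZT0. Each of the 11 was above 0 in every group. Summed over 12 endothelial markers, levels were 1337 to 1516 CPM in CardioGRKO and 1562 to 1707 CPM in GRflox at ZT12, and 1567 to 1680 against 1767 to 1882 CPM at ZT0. Of 12 skeletal muscle markers 4 were tested, and the sum was 8.32 to 10.2 CPM in CardioGRKO and 5.04 to 6.73 CPM in GRflox at ZT12, and 7.08 to 9.67 against 4.01 to 6.00 CPM at ZT0, with Myh4 at 0 in CardioGRKO at ZT0 and Myog at 0 in GRflox at ZT12. The sums of the fibroblast, pericyte and smooth muscle, macrophage, adipocyte and atrial cardiomyocyte markers overlapped between the genotypes at both times. For fibroblasts they were 2360 to 2916 CPM in CardioGRKO and 2460 to 3031 CPM in GRflox at ZT12. In bulk RNA, fewer cells of a type and less RNA per cell cannot be told apart, and the part of these markers in the results below was not tested.

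Per kilobase of exon, the MuRF genes and Fbxo32 led in every group. Trim54, which codes for the microtubule-associated ligase MuRF3, had the highest level, at 234 ± 8.51 CPM per kilobase in CardioGRKO and 286 ± 9.14 in GRflox at ZT12, and 215 ± 25.6 and 227 ± 16.2 at ZT0. Trim63 followed at 70.4 to 81.8 CPM per kilobase over the group means, then Fbxo32 at 25.7 to 38.3 and Trim55 (MuRF2) at 25.0 to 29.7, whose libraries overlapped in 3 of the 4 groups. Fbxw7 lay at 9.92 to 15.8, Rnf144b at 5.42 to 10.5 and Fbxo30 at 4.89 to 5.86 CPM per kilobase. Rnf144b overlapped Fbxo30 in 3 groups, whereas in GRflox at ZT12 it stood above Fbxw7 by its mean and overlapped it. Mstn was at 0.0179 to 0.207 CPM per kilobase, below every other gene in every group.

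**Figure D1:**
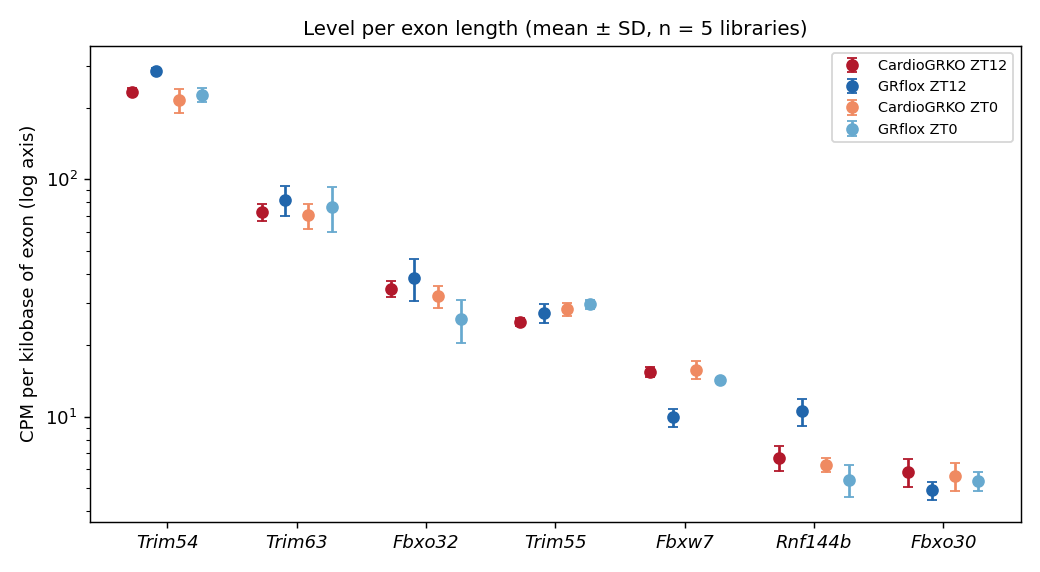
Level of 7 ligase genes per kilobase of exon, on a log axis, as the mean of 5 libraries with its SD as the bar, for CardioGRKO and GRflox at ZT12 and at ZT0. Trim54 and Trim63 lead in each group, and Rnf144b in GRflox at ZT12 reaches 10.5 CPM per kilobase, close to Fbxw7 at 9.92.

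The genotypes differed at ZT12 for 3 of the 7 ligase genes, in edgeR's quasi-likelihood test with p-values adjusted after Benjamini and Hochberg over 14007 genes. Of all genes tested, 21.1% were called in that comparison, 10.4% higher and 10.7% lower. Fbxw7 was higher, and Rnf144b and Trim54 were lower in CardioGRKO. At ZT0 none of the 7 was called, where 14.7% of all genes were (7.36% higher, 7.35% lower). DESeq2 also called 0 of the 7 there, where it called 2267 of all genes. The edgeR p before adjustment was under 0.05 for 2 of the 7, Fbxo32 and Fbxw7, which ranked 2583 and 2614 by p among 14007 genes. Mstn passed the low-count filter through GRflox libraries alone, the group where it was high, so its entry into the test rested on the difference tested. It is left out of these counts, and its reads are given below. Without replicate 5 of GRflox at ZT0, Fbxo32 and Rnf144b were called there too, and without the shallowest library Fbxw7 was. Between the times, Rnf144b, Fbxo32 and Trim54 were higher and Fbxw7 was lower at ZT12 in GRflox, 4 of the 7 genes, where 17.3% of all genes were called (8.13% higher, 9.17% lower). In CardioGRKO only Trim55 was called, lower at ZT12, where 9.17% of all genes were (4.42% higher, 4.75% lower). The genotype effect at ZT12 and the time effect in GRflox share the GRflox libraries of ZT12, so they are not separate observations. The interaction, which is the genotype effect at ZT12 minus that at ZT0, passed for Fbxw7 and Rnf144b, 2 of the 7 genes, where 26 of 14007 genes (0.186%) did, 0.0643% higher and 0.121% lower. Both passed with any 1 library left out, when 16 to 33 genes in all did, and by DESeq2, when 69 did. The median size of the interaction, regardless of sign, was 0.213 on the log2 scale over the 7 genes and 0.090 over all genes. The genes were chosen with earlier results of these data known. Their shares and medians beside those of all genes are therefore a description and no independent support. The labels do not tie replicates to named animals, so p-values measure the spread between libraries.

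**Figure D2:**
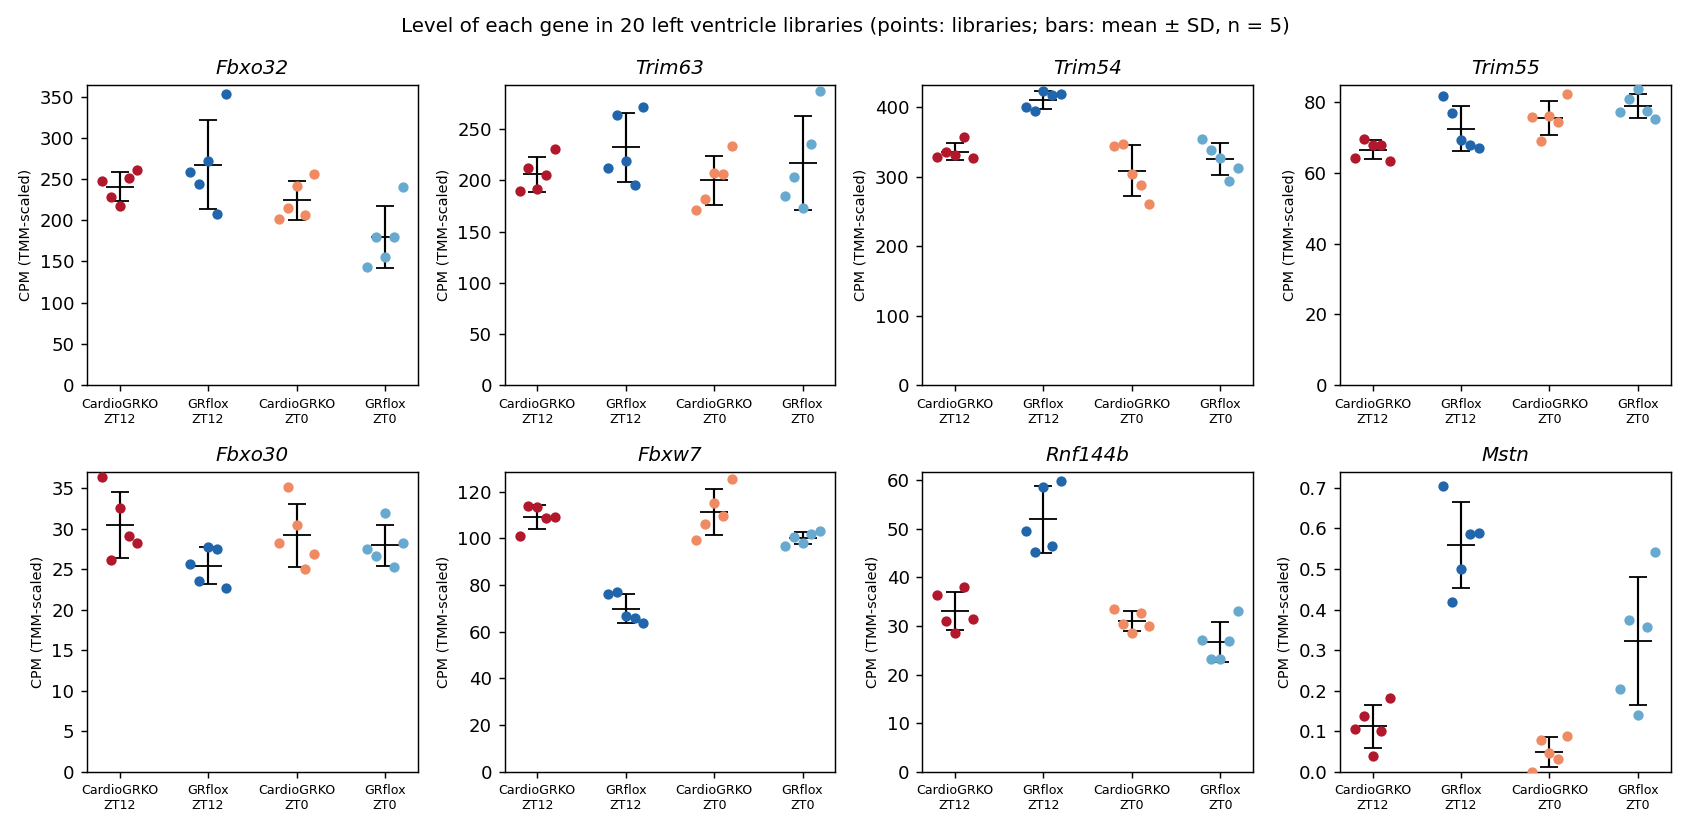
CPM of each gene, from 0, in 20 libraries (points), with the mean and SD of 5 libraries as bars, for CardioGRKO and GRflox at ZT12 and then at ZT0. In Fbxw7 and Rnf144b the GRflox libraries of ZT12 stand clear of the other 15, and Mstn lies below 1 CPM throughout.

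Rnf144b codes for a RING-between-RING ubiquitin ligase known as a p53-induced gene, and it lies on chromosome 13, 47122720 to 47247991 (Entrez 218215; positions are in GRCm38 throughout). At ZT12 its CardioGRKO libraries held 36.3, 31.1, 28.5, 38.1 and 31.4 CPM and its GRflox libraries 49.6, 45.1, 58.6, 46.4 and 59.9 CPM. At ZT0 it was 33.4, 30.3, 28.5, 32.6 and 30.1 CPM in CardioGRKO and 27.2, 23.3, 23.2, 26.9 and 33.2 CPM in GRflox. All GRflox libraries of ZT12 were above every other library, and at ZT0 the genotypes overlapped. In GRflox the level at ZT12 was 1.94-fold that at ZT0 (log2 fold change 0.96 ± 0.10 SE, edgeR adjusted p = 1.90e-07), and in CardioGRKO the difference was 0.10 ± 0.10 (adjusted p = 0.603). CardioGRKO was 1.57-fold lower than GRflox at ZT12 (-0.65 ± 0.10, edgeR adjusted p = 2.73e-05). At ZT0 it was at 0.20 ± 0.10 (adjusted p = 0.196). That value was 0.30 ± 0.10 (adjusted p = 0.0401) without replicate 5 of GRflox at ZT0, the highest library of its group. The interaction was -0.85 ± 0.14 (edgeR adjusted p = 0.00538), which ranked 9 by p among all genes. The RefSeq table has 2 promoter windows of Rnf144b, each from 250 bases before to 50 after a transcript start on the plus strand of GRCm38.p6. They are shown because this gene had the largest interaction of the 8 in size. The counts sum its transcripts and do not say which start was used.
Rnf144b, chr13:47122470-47122769: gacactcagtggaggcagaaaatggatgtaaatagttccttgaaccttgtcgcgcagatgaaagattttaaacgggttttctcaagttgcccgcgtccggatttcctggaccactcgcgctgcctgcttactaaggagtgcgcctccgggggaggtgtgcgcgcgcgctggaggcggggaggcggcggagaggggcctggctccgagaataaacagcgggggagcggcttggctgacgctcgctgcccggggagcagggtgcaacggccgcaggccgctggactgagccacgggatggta
Rnf144b, chr13:47193753-47194052: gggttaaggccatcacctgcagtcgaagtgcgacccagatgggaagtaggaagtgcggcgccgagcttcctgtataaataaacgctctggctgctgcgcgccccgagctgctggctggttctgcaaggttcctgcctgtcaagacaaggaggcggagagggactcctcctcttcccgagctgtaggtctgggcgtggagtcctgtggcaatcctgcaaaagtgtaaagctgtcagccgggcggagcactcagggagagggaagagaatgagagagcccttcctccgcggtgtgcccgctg

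Fbxw7 codes for the F-box protein by which an SCF ligase recognises phosphorylated cyclin E, Myc, Jun and Notch, and it lies on chromosome 3, 84814990 to 84979198 (Entrez 50754). It moved opposite to Rnf144b. At ZT12 it stood at 101, 114, 113, 109 and 109 CPM in the CardioGRKO libraries and at 76.0, 77.2, 66.6, 65.9 and 63.9 CPM in those of GRflox. At ZT0 it was 99.4, 106, 115, 109.6 and 126 CPM in CardioGRKO and 97.0, 101, 97.9, 102 and 103 CPM in GRflox. The GRflox libraries of ZT12 were below all other libraries. CardioGRKO was 1.56-fold higher than GRflox at ZT12 (0.64 ± 0.06, edgeR adjusted p = 2.24e-08), and at ZT0 its difference was 0.15 ± 0.06 (adjusted p = 0.0832). Without the shallowest library the ZT0 difference was 0.19 ± 0.06 (adjusted p = 0.0389). In GRflox the level fell by 0.52 ± 0.06 on the log2 scale at ZT12 relative to ZT0 (edgeR adjusted p = 8.03e-07), and in CardioGRKO it stood at -0.03 ± 0.06 (adjusted p = 0.836). The interaction was 0.49 ± 0.08 (edgeR adjusted p = 0.00608), which ranked 11 by p.

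**Figure D3:**
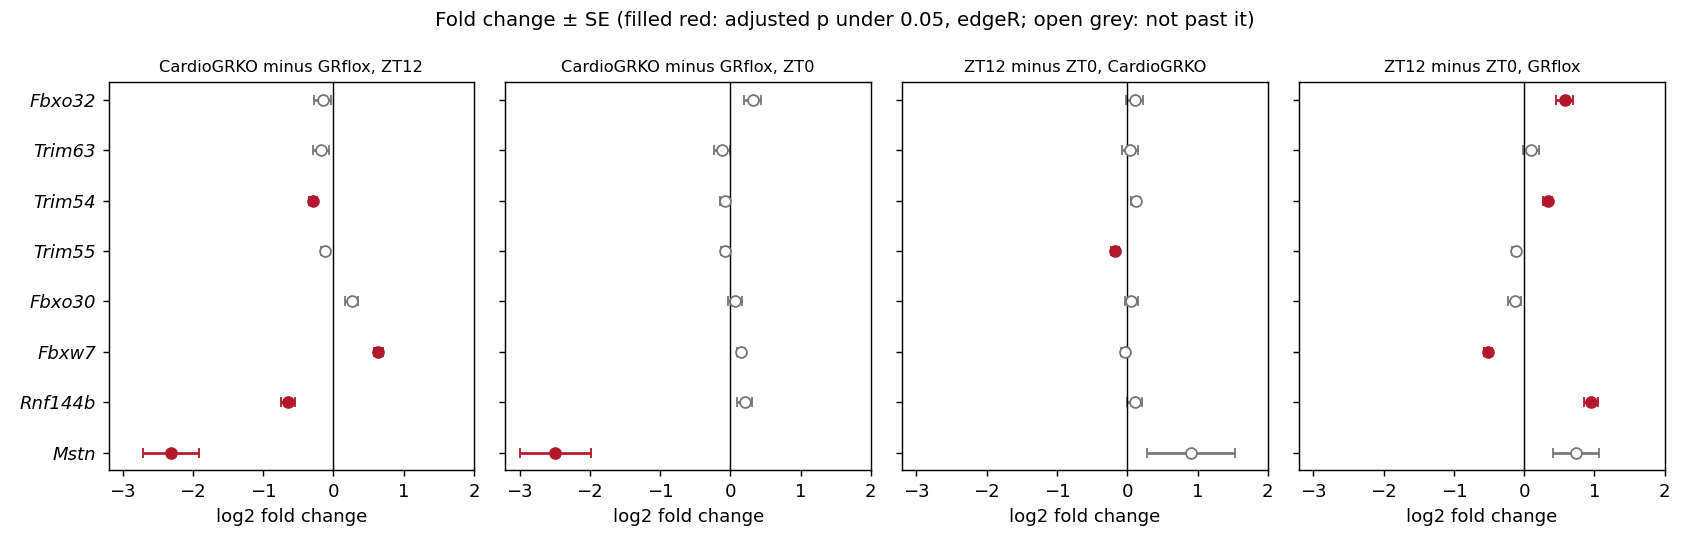
Log2 fold change of each gene with its standard error in 4 comparisons: CardioGRKO minus GRflox at ZT12 and at ZT0, and ZT12 minus ZT0 in CardioGRKO and in GRflox. Filled red points passed an adjusted p of 0.05, and Fbxw7 and Rnf144b lie on opposite sides of 0 at ZT12 (0.64 and -0.65). Mstn, also drawn, entered the test through GRflox libraries alone, so its filled points are no support for a genotype difference.

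Fbxo32, the F-box subunit atrogin-1 (Entrez 67731, chromosome 15, 58175879 to 58214892), was higher at ZT12 than at ZT0 in GRflox, and its time difference in CardioGRKO did not pass. It was at 247, 228, 217, 252 and 261 CPM in CardioGRKO and at 259, 245, 272, 208 and 354 CPM in GRflox at ZT12. At ZT0 the values were 202, 215, 241, 206 and 256 CPM in CardioGRKO and 143, 179.9, 155, 180.2 and 239.9 CPM in GRflox. In GRflox ZT12 was 1.49-fold above ZT0 (0.57 ± 0.12, edgeR adjusted p = 0.00156), though the libraries overlapped. In CardioGRKO the time difference was 0.10 ± 0.12 (edgeR adjusted p = 0.678). The interaction of -0.47 ± 0.17 did not pass (edgeR adjusted p = 0.571). The genotype difference was -0.15 ± 0.12 at ZT12 (adjusted p = 0.419) and 0.32 ± 0.12 at ZT0 (adjusted p = 0.0808). Without replicate 5 of GRflox at ZT0 the difference at ZT0 was 0.45 ± 0.11 and passed (edgeR adjusted p = 0.00801). With replicate number as a block it was 0.333 ± 0.087 and passed (edgeR adjusted p = 0.0127), though the numbers were not shown to pair libraries.

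Trim63, the sarcomere-associated ligase MuRF1 (Entrez 433766, chromosome 4, 134315120 to 134329629), was called in none of the comparisons. Its level was 189.9, 213, 191, 205 and 231 CPM in CardioGRKO and 212, 264, 219, 195 and 272 CPM in GRflox at ZT12. At ZT0 it was 171, 182, 207, 206 and 233 CPM in CardioGRKO and 184, 203, 173, 235 and 288 CPM in GRflox. The groups overlapped in each comparison. CardioGRKO minus GRflox was -0.18 ± 0.11 at ZT12 (95% interval from the SE, -0.398 to 0.047) and -0.11 ± 0.11 at ZT0 (-0.337 to 0.111), with edgeR adjusted p = 0.304 and 0.574. ZT12 minus ZT0 was 0.04 ± 0.11 in CardioGRKO and 0.10 ± 0.11 in GRflox (adjusted p = 0.901 and 0.594), and the interaction was -0.06 ± 0.16 (adjusted p = 0.989).

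The Trim63 promoter is shown because it is the textbook case of a joint glucocorticoid receptor and FOXO element, beside a gene whose level did not pass in these hearts. Capitals mark a palindromic pair of receptor half-sites (GAACA, any 3 bases, TGTTC) and, after a gap of 1 base, the FOXO element TGTTTAC. Both were searched on both strands and did not overlap. They cover bases -208 to -196 and -194 to -188 from the transcript start. Of 32851 mouse windows of 300 bases in the RefSeq table (GRCm38.p6), 0.0578% (19) hold the first and 3.65% the second. The longer form (AGAACA, any 3 bases, TGTTCT) is in 3 windows and in none of these genes, and the shorter letters were chosen with this promoter in view. Of the 8 genes 6 have windows, 9 in all, and no other window held either motif, the E-box CACGTG (7.15% of all windows) or the D-box TTATGTAA (0.938%), which says only that these letters are not in these windows.
Trim63, chr4:134314870-134315169, plus strand: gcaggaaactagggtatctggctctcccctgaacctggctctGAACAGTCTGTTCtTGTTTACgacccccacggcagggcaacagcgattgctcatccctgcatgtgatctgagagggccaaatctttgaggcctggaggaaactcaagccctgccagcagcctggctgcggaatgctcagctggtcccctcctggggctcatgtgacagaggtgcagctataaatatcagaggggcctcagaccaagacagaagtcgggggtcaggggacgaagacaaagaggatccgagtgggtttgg

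Within groups, Fbxo32 and Trim63 varied together. Replicate 5 had the highest level of both genes in each of the 4 groups, and what its number marks is not given by the labels. Their deviations from the group means correlated at Pearson's r = 0.80 and Spearman's rho = 0.76 across 20 libraries, a description only, since both genes of a point share its library. Other pairs of the 8 genes varied together too, among them Trim55 and Fbxw7 (r = 0.703, rho = 0.692), and Trim54 and Fbxw7 ran opposite (r = -0.655, rho = -0.629). Fbxo32 and Trim63 also had the widest spread in GRflox among the ligases, with coefficients of variation of 20.1% and 14.5% at ZT12 and 20.9% and 21.2% at ZT0. In CardioGRKO the same figures were 7.51% and 8.16% at ZT12 and 10.6% and 12.1% at ZT0. The difference in spread was not tested.

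**Figure D4:**
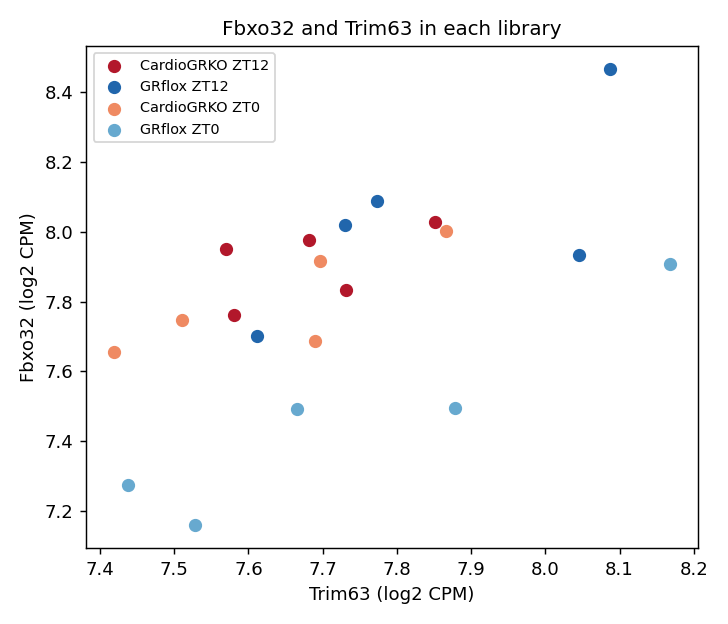
Fbxo32 against Trim63 in each of 20 libraries, both in log2 CPM, coloured by group. GRflox at ZT0 lies lowest on the Fbxo32 axis for a given Trim63 level, and the CardioGRKO libraries cover a narrower range than those of GRflox.

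Trim54 (MuRF3, Entrez 58522, chromosome 5, 31116612 to 31137626) stood at 328, 335, 331, 357 and 327 CPM in CardioGRKO libraries of ZT12 and at 399.6, 394, 423, 418 and 419 CPM in GRflox libraries. At ZT0 it was at 344, 347, 303, 288 and 261 CPM in CardioGRKO and at 355, 338, 327, 294 and 313 CPM in GRflox. Again the GRflox libraries of ZT12 were above the other 15. CardioGRKO was lower at ZT12 (log2 fold change -0.29 ± 0.06, edgeR adjusted p = 0.00135), and ZT12 was above ZT0 in GRflox by 0.33 ± 0.06 (adjusted p = 4.44e-04). The interaction of -0.21 ± 0.09 did not pass (adjusted p = 0.713). In the GENCODE annotation 26.6% of its exon bases are shared with a gene on the opposite strand, Gm15469. Reads of the pair cannot be told apart, with the strand setting of the counting not given in the sources used here.

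Trim55 (MuRF2, Entrez 381485, chromosome 3, 19644344 to 19692584) spanned 63.3 to 69.5 CPM in CardioGRKO and 66.9 to 81.7 CPM in GRflox at ZT12, and 68.9 to 82.3 and 75.3 to 83.8 CPM at ZT0. It was the single gene of the 8 called with time in CardioGRKO, lower at ZT12 (-0.18 ± 0.06, edgeR adjusted p = 0.0474). The libraries overlapped, and the call was lost when replicate 1, 3, 4 or 5 of ZT0 or replicate 1, 4 or 5 of ZT12 was left out (adjusted p = 0.0534 to 0.115). Its time difference in GRflox was -0.12 ± 0.06 (adjusted p = 0.138, or 0.0339 without replicate 1 of GRflox at ZT12), and the interaction of -0.06 ± 0.08 did not pass (adjusted p = 0.969).

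Fbxo30, the F-box protein MUSA1 that is raised in denervated skeletal muscle (Entrez 71865, chromosome 10, 11281330 to 11305750), spanned 26.1 to 36.3 CPM in CardioGRKO and 22.7 to 27.8 CPM in GRflox at ZT12. At ZT0 the ranges were 25.1 to 35.2 and 25.3 to 32.0 CPM. Its genotype difference at ZT12 was 0.26 ± 0.09 and just missed the threshold (edgeR adjusted p = 0.0506, against 0.0442 by DESeq2). It passed without replicate 3 or 4 of GRflox or replicate 2 or 5 of CardioGRKO at ZT12 (adjusted p = 0.0218 to 0.0471), and at ZT0 it was 0.07 ± 0.09 (adjusted p = 0.709). It was not called with time in either genotype.

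Mstn codes for myostatin, a secreted ligand of the TGF-beta family that limits muscle mass (Entrez 17700, chromosome 1, 53061640 to 53068079), and was counted by a handful of reads per library. CardioGRKO libraries at ZT12 had 3, 3, 1, 3 and 3 counts, against 14, 10, 17, 9 and 9 in GRflox. At ZT0 they had 0, 3, 1, 1 and 1 counts, against 4, 9, 4, 5 and 17 in GRflox. As CPM, every CardioGRKO library was below every GRflox library of its time. Pooled over 5 libraries, the ratio of CardioGRKO to GRflox was 0.194 at ZT12 (13 against 59 counts, exact 95% counting interval 0.0976 to 0.358) and 0.164 at ZT0 (6 against 39 counts, 0.0566 to 0.389). The intervals cover counting error only and not the spread between libraries. These ratios describe the reads and are no test of the genotype difference. Mstn passed the low-count filter through 4 GRflox libraries of ZT12 and 1 of ZT0 and no CardioGRKO library. A gene at this level enters the test only through the libraries where it is high, here those of GRflox. For this reason no p-value is given for Mstn. Fitted with the groups of either time alone, it did not pass the filter. The other 7 genes were past the filter level in all 20 libraries.

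The wider pathway was read from 5 lists. List counts are set beside the shares of all genes given above. By DESeq2 1633 of all genes were lower and 1461 higher in CardioGRKO at ZT12, and 1138 lower and 1129 higher at ZT0. With time in CardioGRKO 795 were lower and 682 higher by DESeq2. Without the shallowest library, edgeR called 743 lower and 893 higher at ZT0, and 696 lower and 522 higher with time in CardioGRKO. The lists were chosen with earlier results of these data known, so their counts and medians are a description and no independent support. The first list joins FOXO factors, glucocorticoid-responsive genes and genes of autophagy and stress such as Bnip3 and Sesn1, so it does not hold regulators alone. Of its FOXO factors, Foxo3 and Foxo4 (-0.16 ± 0.04, edgeR adjusted p = 0.00784) were lower in CardioGRKO at ZT12. Foxo1 and Foxo6 were not called there (adjusted p = 0.259 and 0.957). Of the 20 genes of this list, 11 were lower and 1 was higher in CardioGRKO at ZT12 (all genes: 10.7% lower, 10.4% higher), and 8 lower and 1 higher at ZT0 (all genes: 7.35% and 7.36%). Their median log2 fold change was -0.348 at ZT12 and -0.136 at ZT0, against 0.0042 and -0.0061 over all genes. In GRflox 10 of the 20 were higher and 1 lower at ZT12 than at ZT0 (all genes: 8.13% and 9.17%). In CardioGRKO 5 were higher and 1 lower (all genes: 4.42% and 4.75%). Without the shallowest library 7 were lower at ZT0, and in CardioGRKO 2 were lower with time, as by DESeq2. Foxo3, a FOXO factor that drives Fbxo32 and Trim63 in skeletal muscle, was at 58.6 ± 3.15 CPM in CardioGRKO and 104 ± 13.1 CPM in GRflox at ZT12, and at 50.2 ± 3.96 and 55.8 ± 3.22 CPM at ZT0 (SD, n = 5 each), with a difference of -0.83 ± 0.07 at ZT12 (edgeR adjusted p = 5.58e-09) and -0.14 ± 0.07 at ZT0 (adjusted p = 0.202). Klf15, a glucocorticoid-induced factor of muscle metabolism, was at 46.4 ± 5.53 and 103 ± 10.7 CPM at ZT12 (-1.16 ± 0.12, edgeR adjusted p = 1.64e-07). At ZT0 it was at -0.39 ± 0.12 (adjusted p = 0.0369), and was not called without replicate 3, 4 or 5 of GRflox or replicate 1, 2 or 5 of CardioGRKO at ZT0 (adjusted p up to 0.137). The call of Klf15 at ZT0 was lost in 7 of 15 alternatives, not all of them with 1 library left out. Bnip3, a mitophagy receptor, fell at both times (-0.67 ± 0.07 and -0.44 ± 0.07, adjusted p = 1.20e-07 and 8.06e-05). In this list Foxo3 (-0.69 ± 0.10) and the stress-induced Sesn1 (-0.57 ± 0.09) passed the interaction (edgeR adjusted p = 0.00126 and 0.00531), and 4 of the list did by DESeq2 and without replicate 2 of CardioGRKO at ZT0.

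Of 27 other ubiquitin ligase genes of muscle, 4 were lower and 4 higher in CardioGRKO at ZT12 (all genes: 10.7% and 10.4%). At ZT0 4 were lower and 1 higher (all genes: 7.35% and 7.36%). By DESeq2 6 were lower and 3 higher at ZT0. The higher genes at ZT0 were 2 by edgeR without the shallowest library, replicate 2 of CardioGRKO or replicate 1 or 4 of GRflox at ZT0, and 3 without replicate 5 of CardioGRKO. Fbxo31, an F-box protein of cell cycle control, was at 85.0 ± 8.04 CPM in CardioGRKO and 168 ± 20.4 CPM in GRflox at ZT12 (-0.99 ± 0.07, edgeR adjusted p = 1.00e-09), and at 80.9 ± 7.03 and 139 ± 4.24 CPM at ZT0 (-0.77 ± 0.07, adjusted p = 1.02e-07). Asb15 (-0.56 ± 0.06 and -0.36 ± 0.06) and the N-end rule ligase Ubr2 (-0.41 ± 0.06 and -0.28 ± 0.06) fell at both times. Klhl40, a Kelch protein that steadies thin filament proteins, rose (0.41 ± 0.07 and 0.50 ± 0.07). Each of these 3 genes passed at both times, with edgeR adjusted p from 6.68e-07 to 0.00108.

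Of 23 genes of the SCF core, ubiquitin conjugation, ubiquitin and its removal, 4 were lower and none higher at ZT12 (all genes: 10.7% and 10.4%). At ZT0 3 were higher and none lower (all genes: 7.36% and 7.35%). By DESeq2 these counts were also 4 and 0, and 3 and 0. The edgeR p before adjustment was under 0.05 for 8 and 5 of the 23. Among 14007 genes, an edgeR p of 0.0337 at ZT12 ranked 4041 and one of 0.0566 at ZT0 ranked 4051, so many genes lay under that level. The deubiquitinase Usp2 had 232 ± 15.6 CPM in CardioGRKO and 323 ± 26.6 CPM in GRflox at ZT12 (-0.48 ± 0.08, adjusted p = 4.88e-05) and 137 ± 17.4 and 147 ± 12.4 CPM at ZT0. Rbx1, the RING subunit of SCF ligases, was lower at ZT12 (-0.19 ± 0.05, adjusted p = 0.00574). At ZT0 the proteasome-bound deubiquitinase Usp14 (0.20 ± 0.05) and Nedd8 (0.18 ± 0.06), whose product activates cullins, were higher (edgeR adjusted p = 0.00904 and 0.0311). At ZT12 2 were lower without replicate 1 or 4 of CardioGRKO or replicate 3 or 5 of GRflox. At ZT0 1 was higher without the shallowest library, replicate 2 of CardioGRKO or replicate 1 or 4 of GRflox, and Nedd8 was called neither then nor without replicate 2 of CardioGRKO or replicate 1, 3 or 4 of GRflox at ZT0 (adjusted p up to 0.087).

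Around Mstn, 20 of 22 genes of myostatin and activin signalling were tested, of which 3 were lower and 1 higher at ZT12 (all genes: 10.7% and 10.4%). At ZT0 2 were lower and 1 higher (all genes: 7.35% and 7.36%), or 2 and 0 by DESeq2. The single higher gene at ZT0 was called neither without replicate 3, 4 or 5 of CardioGRKO nor without replicate 2, 3 or 4 of GRflox. Furin, a protease that matures such ligands, was lower at both times (-0.49 ± 0.08 and -0.40 ± 0.08, adjusted p = 7.51e-05 and 0.0012), as was the shared mediator Smad4 (-0.24 ± 0.05 and -0.25 ± 0.05, adjusted p = 4.74e-04 and 4.87e-04). At ZT12 the activin receptor gene Acvr2a was higher (0.26 ± 0.07) and Tgfbr1 lower (-0.26 ± 0.07, adjusted p = 0.00931 and 0.0111). Among 26 tested substrates and partners of the ligases 10 were lower and 2 higher at ZT12 (all genes: 10.7% and 10.4%). At ZT0 2 were lower and 4 higher (all genes: 7.35% and 7.36%), or 3 higher without the shallowest library. By DESeq2 9 were lower at ZT12. Troponin I (Tnni3), a target of MuRF1, was at 5185 ± 311 CPM in CardioGRKO and 6568 ± 177 CPM in GRflox at ZT12 and at 5487 ± 212 and 6674 ± 169 CPM at ZT0 (-0.34 ± 0.04 and -0.28 ± 0.04, edgeR adjusted p = 1.62e-06 and 3.47e-05). The titin cap gene Tcap (-0.51 ± 0.09) and Ppara (-0.36 ± 0.06) fell at ZT12 (adjusted p = 2.16e-04 and 2.18e-04). Ankrd1, a stress-induced titin partner, was higher at both times (1.56 ± 0.21 and 1.80 ± 0.21, adjusted p = 5.25e-06 and 1.70e-06). Of the 11 cardiomyocyte markers, whose summed level was lower in the same groups, 6 are in this list.

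The genes whose log2 CPM ran most like each of the 8 over the 20 libraries were picked by Pearson correlation among 11357 genes (11358 for Mstn), as a description of libraries that share genotype and time. For Fbxw7 they were Gja1 (0.95), the gene of connexin 43, Snx30 (0.94) and Dear1 (0.92), and for Rnf144b Sesn1 (0.91), Lrrc10 (0.90) and Glul (0.90). Trim54 ran most like Midn (0.89), Mpp2 (0.88) and Mbd1 (0.88), and Trim55 like Nexn (0.88), Fsd2 (0.86) and Prex1 (0.84). For Fbxo32 the leading genes were Mkl2 (0.83), F3 (0.83) and Tbcd (0.81), and for Trim63 Clip1 (0.84), Bcl2l11 (0.83) and Sh3rf2 (0.81). Fbxo30 was followed by Zfp568 (0.83), Ctr9 (0.80) and St13 (0.79). Mstn ran most like Gpt2 (0.94), Lpl (0.93) and Ppp2r3a (0.93). Its log2 CPM rests on 0 to 17 counts a library and a prior count of 2, so these values describe a gene near the floor.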

How the data were processed

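Gene-level read counts of 20 poly(A) RNA-seq libraries were used as deposited by the authors, as whole-number counts without normalization. The submitters' processing notes name STAR 2.5.1, featureCounts of Subread 1.5.1, DESeq2 1.38.3 and the build mm10. Neither strand setting, treatment of multimapping reads nor annotation release was stated there: not given in the sources used here. Genotype, time and replicate came from the titles. Each table had 24918 lines, and lines of 1 Entrez identifier were summed, giving 24059 genes. No 2 replicates agreed within counting error (chi-square per gene 4.22 to 21.0).

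Counts were tested in R 4.3.3 with the quasi-likelihood test of edgeR 4.0.16. Of all genes, filterByExpr (minimum count 10, minimum total 15) left 14007, and 4 group means were fitted to all 20 libraries. TMM factors ran from 0.961 to 0.996 in GRflox and from 1.01 to 1.04 in CardioGRKO, with no overlap. P-values were adjusted over all genes tested (Benjamini-Hochberg, threshold 0.05). Log2 fold changes are given with standard errors, computed as the change over the root of F, and CPM as mean ± SD. Log2 CPM used a prior count of 2. Exon lengths are from GENCODE M21 and positions and promoters from RefSeq, both GRCm38, the assembly of mm10. The code was tested on simulated counts. DESeq2 1.42.0, its size factors, no filter, fits of the compared groups alone, a replicate block and leaving out each library were alternatives. The members and lists were chosen with earlier results of these data known. Up to 4 genes with the smallest p in a genotype comparison or the interaction were named per list, and per member the 3 genes nearest by correlation with a mean log2 CPM of at least 1, leaving out numbered Gm genes and Rik clones. Recomputing list counts and named list genes under the alternatives was chosen after seeing the data.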

Additional observations from a re-analysis of the deposited data

Results flagged for a closer look

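The interaction of genotype and time passed for Fbxw7 (0.49 on the log2 scale) and Rnf144b (-0.85), so the genotype effects at ZT12 and ZT0 differed for these 2 genes by the edgeR test of that difference. Among 32 groups of 5 libraries, 1 held a library far from the rest: Trim54 in replicate 4 of CardioGRKO at ZT12, at 356.8 CPM, with the other 4 between 327 and 335 CPM. Chance flags about 1 in 20 such groups.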

How the results depend on the processing

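Over 15 alternatives a comparison, or 24 for the interaction, 635 of 667 recomputed values of the 8 genes kept their direction and side of the threshold, 9 lost a call, 12 gained one and 11 changed sign, and of the 11 none had been called. The interaction ran from 0.454 to 0.529 for Fbxw7 (adjusted p up to 0.0176) and from -0.948 to -0.798 for Rnf144b (adjusted p up to 0.0158). It could not be run on 2 groups alone. Members called at ZT0 between genotypes were 1 of 8, and 0 with only the 2 groups compared, where Mstn was not tested, 2 with the replicate block (Fbxo32 at 0.333, adjusted p = 0.0127), and 1 to 3 with 1 library left out. Of all genes 2060 were called there, 2194 with the replicate block and 1636 to 1968 with 1 library left out. Members called with time in CardioGRKO were 1, and 0 without a filter and 0 with the replicate block, and 0 to 1 with 1 library left out. All genes called there numbered 1284, 1359 with the replicate block and 874 to 1371 with 1 library left out. At ZT12 4 members were called between genotypes, 3 with only the 2 groups compared, 5 by DESeq2 and 5 with the replicate block, which added Fbxo30 (adjusted p = 0.0442 and 0.0384), and 4 to 5 with 1 library left out. Of all genes 2952 were called at ZT12, 3094 by DESeq2, 3111 with the replicate block and 2498 to 2872 with 1 library left out. With time in GRflox 4 were called, and 5 without replicate 5 of ZT0 (Mstn) or replicate 1 of ZT12 (Trim55). All genes called there numbered 2423, 2158 without replicate 5 of ZT0 and 2252 without replicate 1 of ZT12. The member counts hold Mstn, whose entry into the test rested on its genotype difference, so its calls are no support. Of the 7 ligase genes alone, edgeR called 0 between genotypes at ZT0 and 3 at ZT12, and with time 1 in CardioGRKO and 4 in GRflox. The interaction was called for 26 genes, for 69 by DESeq2, for 38 with the replicate block and for 16 to 33 with 1 library left out, of which 16 without replicate 1 of CardioGRKO at ZT12 and 17 without replicate 4 of GRflox at ZT12 or replicate 2 or 4 of GRflox at ZT0. The cause was not tested. Sign changes came with 1 library left out: Trim63 ranged from -0.185 to 0.012 between genotypes at ZT0, from -0.014 to 0.09 with time in CardioGRKO and from -0.188 to 0.009 in the interaction. Fbxo30 ranged from -0.019 to 0.132 between genotypes at ZT0 and from -0.024 to 0.14 with time in CardioGRKO, Fbxw7 from -0.068 to 0.007 with time in CardioGRKO, and Mstn from -0.169 to 0.511 in the interaction. Other sign changes lay within these ranges (-0.002, -0.011, -0.012 and -0.05). Whether replicate numbers pair libraries was not settled. Of 20 correlations of same-numbered libraries 6 passed 0.1, with a range of -0.272 to 0.234, and 6 of the 20 matched their own number best. Of 528 recomputed values of named list genes 516 were kept and 12 lost their call. Mstn, at 0 to 17 counts a library, is limited by depth.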
